A study of Sus scrofa with 4 samples.

Results

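Caspases are proteases that dismantle a cell during apoptosis, and the apoptosome is the complex that switches on one branch of them. The 8 genes described here were chosen by name: the caspase genes CASP2, CASP6, CASP8 and CASP9, the apoptosome genes APAF1 and CYCS, and DIABLO and XIAP, which act on caspases from opposite sides. All 8 had a row among the 29884 rows of the count table, and all 8 passed the filter on low counts that left 14352 genes for testing. Their levels came from RNA sequencing of porcine (Sus scrofa) granulosa cells, which surround the oocyte and fill the wall of the ovarian follicle, taken from antral follicles. Part of each sample went to flow cytometry, and the rest was grouped by its share of cells in G0/G1, when DNA is not yet being copied. High G0/G1 distribution was the label of 2 libraries and low G0/G1 distribution that of 2 more, with no treatment, genotype or time named for either group. Breed, age and pooling of animals are not given in the labels used here, and the labels do not tie the libraries to different pigs. The p-values therefore reflect the spread between libraries, and part of that may be technical. The study's title concerns arrest in G0/G1 under hypoxia. Comparing the groups shows how these genes stood where more of the cells were in that phase.

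In the intrinsic pathway, cytochrome c released from mitochondria binds APAF1, which then assembles into the apoptosome and recruits and activates caspase 9. Caspase 9 in turn cleaves executioner caspases. XIAP binds and blocks caspase 9 and some executioners, while DIABLO, also released from mitochondria, displaces XIAP. Caspase 8 starts the separate branch that runs from death receptors at the cell surface. Granulosa cell apoptosis is the hallmark of follicular atresia, the loss of follicles that do not ovulate.

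Library totals ran from 28701688 to 30399863 counts in high and from 27442850 to 32674921 in low G0/G1 cells. Levels are in CPM, counts relative to the library total after TMM scaling, scaled to 1000000, and they compare a gene between libraries and not 1 gene with another, since counts were not divided by transcript length. Of 10 granulosa cell markers 9 had counts in every library, with a summed level of 18183 and 11045 CPM in high and of 12930 and 11398 CPM in low G0/G1 cells. CYP19A1 was at 0 in all 4, while its paralog CYP19A3 had counts. The 6 stromal fibroblast markers, all with counts in every library, summed to 86.9 and 115 CPM in high replicates 1 and 2, against 34.8 and 1421 CPM in low replicates 1 and 2, so low replicate 2 stood apart. The 6 endothelial markers, of which TEK was at 0 in low replicate 1, summed to 13.5 and 41.8 CPM in high and to 6.87 and 53.1 CPM in low G0/G1 cells. The 5 theca markers, which include LHCGR, a receptor that granulosa cells of large follicles also make, summed to 1055 and 365 CPM in high and to 244 and 432 CPM in low G0/G1 libraries. The 5 oocyte markers summed to 8.76 and 9.55 CPM in high and to 6.43 and 11.5 CPM in low G0/G1 libraries. Of them only 1 had counts in every library, and ZP2 was at 0 throughout. The 7 leukocyte markers stayed between 1.48 and 3.05 CPM in high and between 0.627 and 3.05 CPM in low G0/G1 cells.

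Among the 8 genes the groups separated for 3. CASP2 and DIABLO were lower and XIAP was higher in both high G0/G1 libraries than in both low ones. CASP6, CASP8 and CASP9 overlapped between groups at similar levels, and APAF1 and CYCS varied so much within each group that the groups overlapped. By edgeR's quasi-likelihood test, with p-values adjusted over all genes tested, 0 of the 8 were called in either direction, and over all genes 0% were called higher and 0% lower. At an unadjusted p under 0.05 there was 1 member higher, where 9.92% of all genes tested were, and 2 lower, against 10.8%. DESeq2 called 0 members higher, against 5.79% of the genes with an adjusted p, and 1 lower, CASP2, against 5.48%, while limma-voom called 0 members and 0% of all genes in each direction. Non-overlapping groups were common across the table, at 26.8% of genes for the higher direction and 29.8% for the lower, so 1 and 2 of 8 are near or below the background. Without high replicate 1, edgeR called 0 members, while it called 2.41% of all genes higher and 3.92% lower, and DESeq2 called 1 higher, APAF1, against 7.54%, and 2 lower, CASP2 and CYCS, against 9.68%. Without high replicate 2, edgeR called 0 members and 0% of all genes, and DESeq2 called 0 members higher, against 2.97%, and CASP2 lower, against 3.63%. The median log2 fold change, high minus low, was -0.17 over the members and -0.01 over all genes tested. Leaving out high replicate 2 moved the members' median to -0.41, and leaving out low replicate 2 moved it to -0.04.

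**Figure D1:**
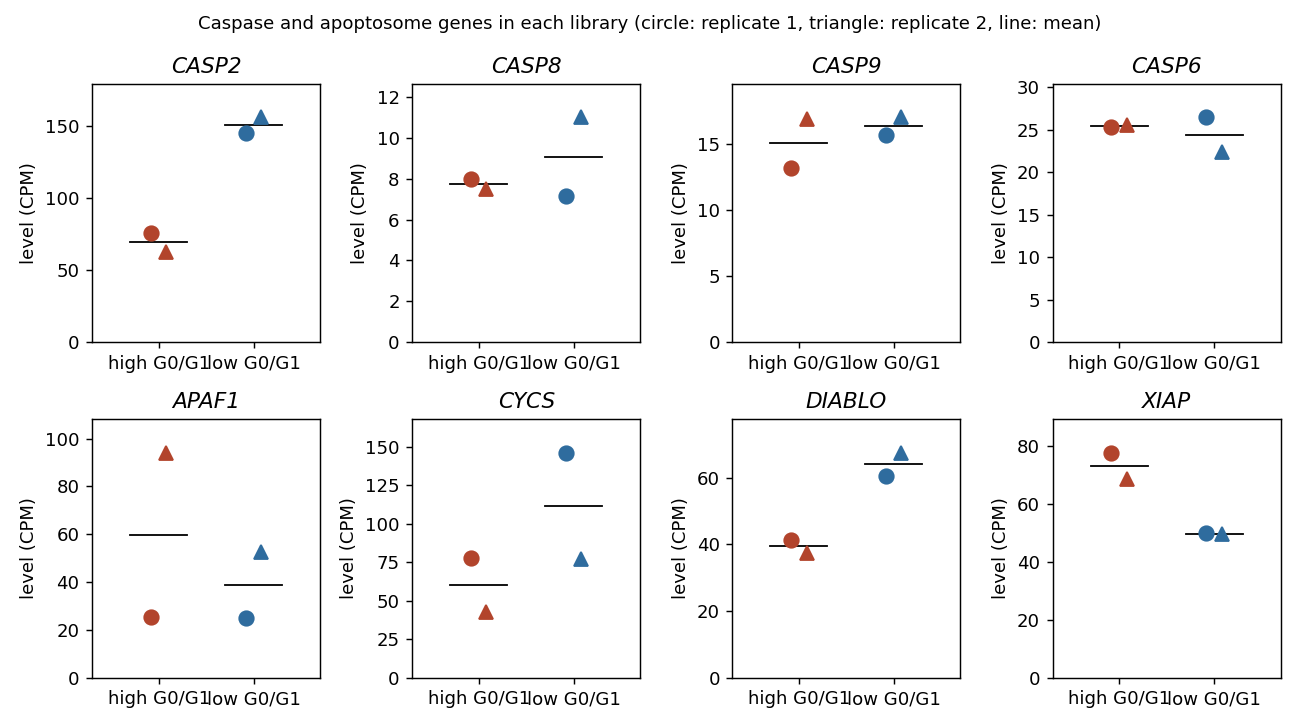
Level of each of the 8 genes in CPM (vertical axis, from 0) in the 2 high and 2 low G0/G1 libraries, with a line at each group's mean. CASP2 and DIABLO lie lower and XIAP higher in both high G0/G1 libraries, while the groups overlap for the other 5 genes and APAF1 stands at 94.0 CPM in high replicate 2.

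CASP2 (chromosome 18, 6946432 to 6966088 in Sscrofa11.1) encodes caspase 2, an initiator that is activated on a platform containing PIDD1 and has been linked to errors of cell division and DNA damage. It stood at 75.9 and 62.8 CPM in the high G0/G1 libraries, against 145 and 156 CPM in the low ones. Both high libraries were thus far below both low ones, and the gap between the groups exceeded that between replicates. The means were 69.3 ± 9.29 CPM in high and 150 ± 7.49 in the low G0/G1 libraries (SD, n = 2 each), a fitted fold of 0.461. The log2 fold change was -1.12 ± 0.21 (SE), with a 95% interval from -1.65 to -0.58, and edgeR's adjusted p was 0.151, which misses the threshold. By its unadjusted p of 0.00285 the gene ranked 265 of 14352. DESeq2 called it lower, with an adjusted p of 0.00240. It lost that call when either low library was left out, while the log2 fold change stayed between -1.27 and -0.96 in all 14 alternatives.

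CASP8 (chromosome 15, 104923659 to 104948470), the initiator of the death receptor branch, stood at 7.98 and 7.51 CPM in the high G0/G1 libraries, against 7.15 and 11.0 CPM in the low ones. Both high values lay between the low ones, and low replicate 2, the library with the high stromal markers, was the highest. Whether other cell types had a part in that value was not tested. Its log2 fold change was -0.23 ± 0.37 (SE; 95% interval -1.16 to 0.71, edgeR adjusted p = 0.755), and it was 0.13 without low replicate 2.

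CASP9 (chromosome 6, 74707597 to 74730033), the initiator recruited by the apoptosome, stood at 13.2 and 16.9 CPM in the high G0/G1 libraries, against 15.7 and 17.0 CPM in the low ones. The groups overlapped, and high replicate 1 was the lowest library. Its log2 fold change was -0.12 ± 0.27 (SE; 95% interval -0.81 to 0.57, edgeR adjusted p = 0.831), and it was 0.04 without high replicate 1. The locus overlaps CELA2A, which had at most 3 counts in a library.

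CASP6 (chromosome 8, 112519450 to 112534315), an executioner that cleaves nuclear lamins, had the narrowest range on the log2 scale over all 4 libraries of the 4 caspase members. It stood at 25.3 and 25.5 CPM in the high G0/G1 libraries, against 26.4 and 22.3 CPM in the low ones, so that both high values lay between the low ones. The replicate gap in high G0/G1 cells was 0.015 on the log2 scale, and 1.90% of all genes tested had a smaller one, while the gap in low G0/G1 cells was 0.24 and 43.4% had a smaller one. The log2 fold change was 0.06 ± 0.23 (SE; edgeR adjusted p = 0.908), and the 95% interval from -0.53 to 0.65 still allows a difference in either direction. Without low replicate 2 the log2 fold change was -0.045.

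The genes of the apoptosome core were the most variable of the 8. APAF1 (chromosome 5, 85166616 to 85258751), the scaffold of the complex, stood at 25.5 and 94.0 CPM in high replicates 1 and 2, against 25.0 and 52.4 CPM in low replicates 1 and 2. Each group had 1 low and 1 high library, so the spread lay within the groups. The replicate gap on the log2 scale was 1.88 between the high and 1.06 between the low libraries, and 93.8% and 88.5% of all genes tested had a smaller one. The log2 fold change of 0.63 ± 0.68 (SE; edgeR adjusted p = 0.631) had a 95% interval from -1.11 to 2.36. Leaving out high replicate 2 turned it to -0.60, against 1.28 when high replicate 1 was left out instead. With low replicate 2 left out it was 1.28, and with low replicate 1 left out 0.27. DESeq2 called APAF1 higher only when high replicate 1 was left out, with an adjusted p of 0.0434.

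The libraries with more APAF1 were also those with more endothelial marker RNA, at 41.8 CPM in high replicate 2 and 53.1 in low replicate 2, against 13.5 in high replicate 1 and 6.87 in low replicate 1. The stromal fibroblast, leukocyte and oocyte marker sums were also higher in both replicate 2 libraries than in both replicate 1 libraries. The granulosa sum was lower in both, and the theca sum showed no such split. The part of other cell types in the APAF1 levels was not tested, and in bulk samples a change in the number of cells of a type cannot be told apart from a change in RNA per cell. The APAF1 locus overlaps IKBIP, which stood at 33.7 and 37.1 CPM in high and at 33.3 and 21.3 CPM in low G0/G1 cells, an order unlike that of APAF1. Whether the counting used strand is not given, and reads of the shared stretch may be split between these genes.

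CYCS (chromosome 18, 47169921 to 47172212) encodes cytochrome c, which carries electrons between respiratory complexes III and IV and triggers the apoptosome once it leaves the mitochondrion. It stood at 77.9 and 42.8 CPM in the high G0/G1 libraries, against 146 and 76.8 CPM in the low ones. The groups met at high replicate 1 and low replicate 2, which had nearly the same level, with low replicate 1 above and high replicate 2 below them. The log2 fold change was -0.89 ± 0.44 (SE; 95% interval -1.99 to 0.22, edgeR adjusted p = 0.309). Without low replicate 1 it was -0.29, and -0.52 when high replicate 2 was dropped. Leaving out high replicate 1 gave -1.39, and DESeq2 then called the gene lower (adjusted p = 0.0270). Mammalian genomes carry processed copies of CYCS, and how reads shared with them were counted is not given, so its level is uncertain.

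DIABLO (chromosome 14, 30498885 to 30519846), the mitochondrial protein that frees caspases from XIAP, stood at 41.4 and 37.6 CPM in the high G0/G1 libraries, against 60.7 and 67.5 CPM in the low ones. Both high libraries were below both low ones, with little spread in either group. The means were 39.5 ± 2.71 CPM in high and 64.1 ± 4.85 in the low G0/G1 libraries (SD, n = 2 each). The log2 fold change was -0.70 ± 0.20 (SE), with a 95% interval from -1.22 to -0.18 and an edgeR adjusted p of 0.184. DESeq2 gave an adjusted p of 0.0951, so neither tool called it with all 4 libraries, and over all 14 alternatives the log2 fold change ran from -0.78 to -0.61 with 0 calls.

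XIAP (chromosome X, 101399374 to 101440021) encodes the inhibitor that binds caspase 9 and some executioner caspases. The gene stood at 77.7 and 68.8 CPM in the high G0/G1 libraries, against 49.8 and 49.5 CPM in the low ones. It was the member that was higher in both high libraries than in both low ones, and the low pair were almost equal. The means were 73.2 ± 6.31 CPM in high and 49.6 ± 0.231 in the low G0/G1 libraries (SD, n = 2 each). The log2 fold change was 0.56 ± 0.20 (SE), with a 95% interval from 0.06 to 1.06 and an edgeR adjusted p of 0.214, and DESeq2's adjusted p was 0.151. Over all 14 alternatives it ran from 0.46 to 0.67 with 0 calls. A non-coding gene and a pseudogene overlap the locus, with at most 2 counts in a library.

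**Figure D2:**
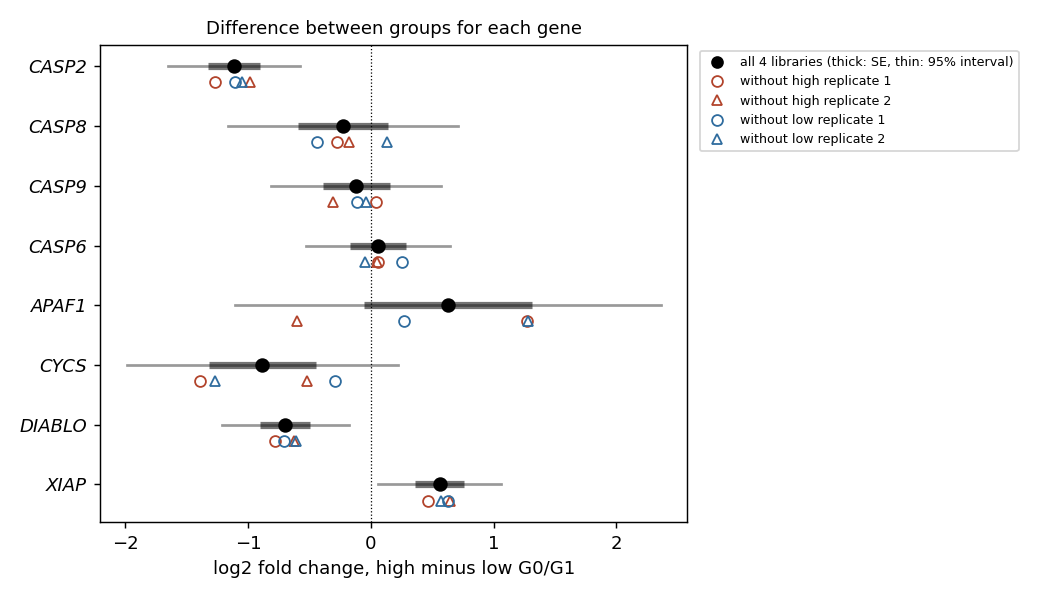
Log2 fold change, high minus low G0/G1 (horizontal axis), for each of the 8 genes with all 4 libraries (black, with SE and 95% interval) and with 1 library left out (open symbols). CASP2, CYCS, DIABLO and XIAP keep their sign whichever library is left out, while APAF1 runs from -0.60 to 1.28.

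Ratios of read counts between genes whose proteins bind each other do not depend on how libraries are scaled. These 4 ratios were chosen with the levels known and are given as descriptions. With 2 libraries a group an exact permutation test cannot go below a p of 0.333, so none was made. XIAP had 1.88 and 1.83 reads for each DIABLO read in the high G0/G1 libraries, against 0.821 and 0.733 in the low ones. That these values separate the groups follows from the levels above, since XIAP was higher and DIABLO lower in both high libraries. It is no separate observation. The mean difference was 1.26 on the log2 scale, and which gene had more reads also depends on transcript length. XIAP to CASP9, the caspase it blocks, was 5.88 and 4.07 in high against 3.18 and 2.91 in low G0/G1 libraries. APAF1 to CASP9, the caspase it recruits, overlapped, at 1.93 and 5.57 in high against 1.60 and 3.08 in low. APAF1 to CYCS, its trigger, varied the most, at 0.327 and 2.20 in high against 0.171 and 0.682 in low, and replicate gaps were larger than the gap between groups. Read numbers also reflect transcript length, so a ratio says nothing of the number of molecules, only how it differs between libraries.

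**Figure D3:**
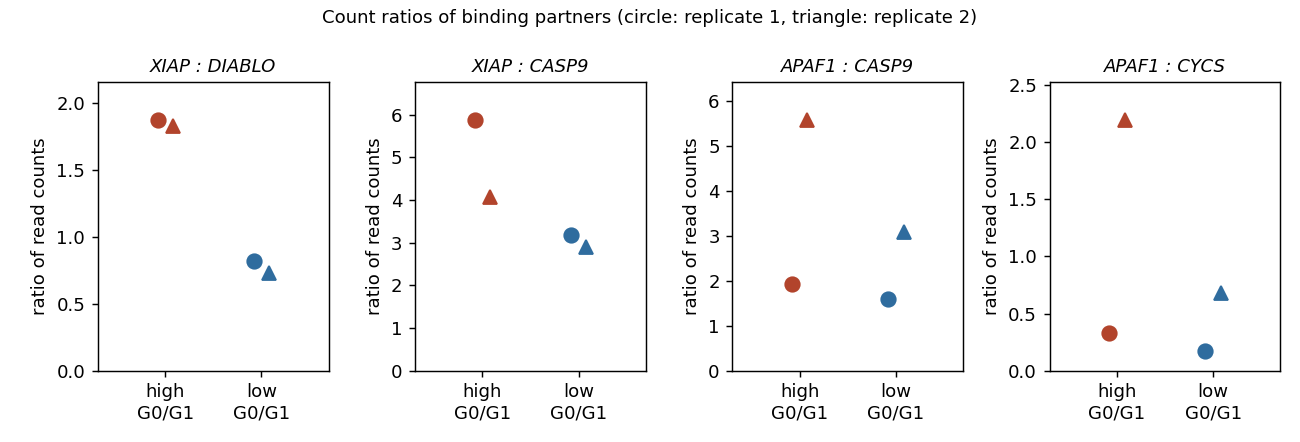
Ratio of read counts (vertical axis, from 0) for 4 pairs of genes whose proteins bind each other, in each high and low G0/G1 library. XIAP to DIABLO lies at 1.83 and above in both high libraries and at 0.821 and below in both low ones. That separation follows from the levels of these genes, and the ratios with APAF1 overlap.

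The genes with patterns most like those of the 3 members with the smallest p were found by the root mean square difference of log2 CPM, each gene centred on its own mean over the 4 libraries, among 10970 genes. Nearest to CASP2 were EEFSEC, a translation factor for selenocysteine (0.035), MRPS23, a mitochondrial ribosomal protein (0.037), and PPEF1, a protein phosphatase (0.044). Nearest to DIABLO were CD3EAP, a subunit of RNA polymerase I (0.016), GADD45GIP1, a mitochondrial ribosomal protein (0.019), and POLR2I, a subunit of RNA polymerase II (0.026). Nearest to XIAP were RBM23, an RNA-binding protein (0.021), KMT2C, a histone methyltransferase (0.023), and CLDN12, a claudin (0.024). Such patterns were common, with 357 genes within 0.2 of CASP2, 1197 of DIABLO and 1103 of XIAP. APAF1 had 5 genes within that distance and CYCS, also variable, had 58. The distance was not scaled to a gene's spread, so genes with large swings tend to have few others within it. Nearest to APAF1, chosen after its values were seen, was MAP3K5 (0.088), a stress-activated kinase of the JNK and p38 pathways. MAP3K5 stood at 10.6 and 33.7 CPM in high against 9.35 and 18.9 CPM in low G0/G1 libraries.

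Among other caspase genes, CASP10, a death receptor caspase, stood at 0.604 and 4.95 CPM in high against 1.51 and 1.14 CPM in low, so 1 high library was highest and the other lowest. Its log2 fold change was 1.06 (95% interval -1.51 to 3.63, edgeR adjusted p = 0.579), and DESeq2 did not call it either. CASP1, an inflammatory caspase, had 1 and 2 counts in high and 0 and 0 in low G0/G1 libraries. CASP14, the caspase of keratinocytes, had 0 in all 4, which allows up to 0.0941 to 0.105 CPM (3 counts, counting error only).

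Among other inhibitor of apoptosis genes, 5 of 6 symbols matched a row and 3 were tested. BIRC5, or survivin, which also serves chromosome segregation in mitosis, stood at 41.3 and 7.86 CPM in the high G0/G1 libraries, against 97.5 and 98.2 CPM in the low ones. Its log2 fold change of -1.99 ± 0.75 (SE) had an edgeR adjusted p of 0.230 and a DESeq2 adjusted p of 0.0415, and it ran from -3.64 without high replicate 1, where edgeR called it (adjusted p = 0.0168), to -1.24 without high replicate 2. DESeq2 lost its call when either low library was left out. BIRC5 was opposite to XIAP in sign. BIRC3 stood at 50.3 and 31.0 CPM in high against 42.1 and 29.5 CPM in low, and BIRC6 at 103 and 76.5 CPM in high against 104 and 76.9 CPM in low, with overlap in both.

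Of the death receptors, their ligands and adaptors, 12 of 17 were tested, 6 with a positive and 6 with a negative log2 fold change, and the median was -0.0032. With all 4 libraries 0 were called by edgeR or DESeq2. CFLAR, which encodes the caspase 8 inhibitor cFLIP, stood at 73.0 and 105 CPM in the high G0/G1 libraries, against 47.9 and 61.3 CPM in the low ones. Both high libraries were above both low ones, with a log2 fold change of 0.71 ± 0.27 (SE, edgeR adjusted p = 0.235), and it was 0.42 without high replicate 2. TNFRSF1A, a receptor of tumour necrosis factor, stood at 67.1 and 172 CPM in high against 71.8 and 63.8 CPM in low. It was highest in high replicate 2, as APAF1 was, and its log2 fold change of 0.82 ± 0.46 (SE, edgeR adjusted p = 0.359) turned to -0.014 once high replicate 2 was left out. Leaving out high replicate 1 instead gave 1.33, which edgeR called (adjusted p = 0.0448). DEDD, a death effector domain protein, had a log2 fold change of 0.53 ± 0.22 (SE) and PIDD1, a partner of caspase 2, one of -0.65 ± 0.36, with edgeR adjusted p-values of 0.255 and 0.355, and DEDD was 0.34 without high replicate 2. PIDD1 stood at 5.43 and 4.39 CPM in high against 7.31 and 8.11 CPM in low G0/G1 libraries. Both high libraries were below both low ones, as for CASP2 and for 29.8% of all genes tested.

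The list of other mitochondrial death factors, which also holds the anti-apoptotic HAX1, had 5 of 7 members tested. All 5 had a negative log2 fold change, as DIABLO had, with a median of -0.53 (-0.30 without high replicate 2). Of them 0 were called by edgeR or DESeq2. All 5 stayed negative under every scaling tried, and HTRA2, a protease that also binds XIAP, turned positive without low replicate 1 and, by DESeq2, without high replicate 2. AIFM1, the apoptosis-inducing factor, stood at 40.8 and 27.5 CPM in the high G0/G1 libraries, against 52.9 and 47.4 CPM in the low ones. AIFM2, an oxidoreductase related to it, had a log2 fold change of -0.63 ± 0.25 (SE), HAX1, a mitochondrial anti-apoptotic protein, one of -0.51 ± 0.24 and the nuclease gene ENDOG one of -0.53 ± 0.43, with edgeR adjusted p-values of 0.246, 0.296 and 0.520. AIFM1 had -0.55 ± 0.27. Without high replicate 1 AIFM1 was -0.87 and ENDOG -0.89, and without high replicate 2 they were -0.30 and -0.24. Of respiratory complexes III and IV, between which cytochrome c moves, 7 of 19 symbols matched a row, and all 7 had a negative log2 fold change with a median of -0.36 and 0 calls by either tool. The signs were the same under every scaling, and by edgeR UQCRB turned positive without low replicate 1. The subunit gene COX7C stood at 104 and 101 CPM in high against 176 and 137 CPM in low G0/G1 libraries, with a log2 fold change of -0.61 ± 0.22 (SE, edgeR adjusted p = 0.219). UQCR10, COX7A2 and COX5B had -0.45, -0.45 and -0.36, and without low replicate 1 COX7C was -0.35 and COX7A2 -0.26. Across all genes tested 50.6% had a negative log2 fold change.

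Modulators of the apoptosome and of XIAP had 7 of 10 members tested, 6 with a negative log2 fold change. DESeq2 called 2 lower, where it called 5.48% of all genes with an adjusted p lower, and edgeR called 0. The median was -0.82, the value of CASP8AP2 itself, but -0.48 without high replicate 2 and -0.55 without low replicate 1. ANP32A, a nuclear protein reported to speed apoptosome activity, stood at 72.4 and 40.4 CPM in the high G0/G1 libraries, against 126 and 124 CPM in the low ones. CSE1L, a nuclear export factor of importin alpha with a reported role in apoptosome assembly, stood at 98.7 and 58.9 CPM in high against 179 and 165 CPM in low. Their log2 fold changes were -1.15 ± 0.32 and -1.13 ± 0.30 (SE), with edgeR adjusted p-values of 0.181 and 0.176 and DESeq2 adjusted p-values of 0.0370 and 0.0289. The DESeq2 calls of both held without high replicate 1 and were lost when any other library was left out. Without high replicate 1 edgeR called both, at -1.63 for ANP32A and -1.56 for CSE1L (adjusted p = 0.0360 and 0.0413). ANP32B, a relative of ANP32A, had -0.82 ± 0.24, and CARD6, a protein with a caspase recruitment domain, was the exception at 0.64 ± 0.33, with edgeR adjusted p-values of 0.185 and 0.329. CARD6 was 0.33 without high replicate 2.

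Caspase substrates and genes of the execution phase went both ways, with 7 of 14 tested members positive and 7 negative and a median of -0.04. Without high replicate 1 there were 6 positive and 8 negative with a median of -0.29, without high replicate 2 there were 5 and 9 with -0.10, and without low replicate 2 the median was 0.08. DESeq2 called 1 higher and 2 lower, where it called 5.79% and 5.48% of all genes with an adjusted p, and edgeR called 0. LMNB1, a lamin of the nuclear envelope that is cut in apoptosis, stood at 81.1 and 16.4 CPM in the high G0/G1 libraries, against 229 and 207 CPM in the low ones. PARP1, a DNA repair enzyme cut by caspases, stood at 129 and 94.5 CPM in high against 217 and 219 CPM in low. GAS2, a growth arrest protein cut by caspases, was the gene called higher, at 18.1 and 29.3 CPM in high against 8.56 and 11.9 CPM in low. The log2 fold changes were -2.16 ± 0.74 for LMNB1, -0.96 ± 0.24 for PARP1 and 1.22 ± 0.36 for GAS2 (SE), with DESeq2 adjusted p-values of 0.0189, 0.0230 and 0.0385 and edgeR adjusted p-values of 0.208, 0.170 and 0.187. Without high replicate 1 LMNB1 was -3.74 and called by edgeR (adjusted p = 0.0168), and without high replicate 2 it was -1.43. The PARP1 and GAS2 calls by DESeq2 were lost when any library but high replicate 1 was left out, and the LMNB1 call when either low library was. SPTAN1, the spectrin cut by caspases, had a log2 fold change of 0.63 ± 0.22 (SE, edgeR adjusted p = 0.214). GSN, gelsolin, had a log2 fold change of -1.14 ± 0.37 (SE, edgeR adjusted p = 0.199). It stood at 34.1 and 33.5 CPM in high replicates 1 and 2, against 49.8 and 99.5 CPM in low replicates 1 and 2. Low replicate 2 is the library with the high stromal markers, and without it the log2 fold change was -0.55. The part of other cell types in the GSN levels was not tested.

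**Figure D4:**
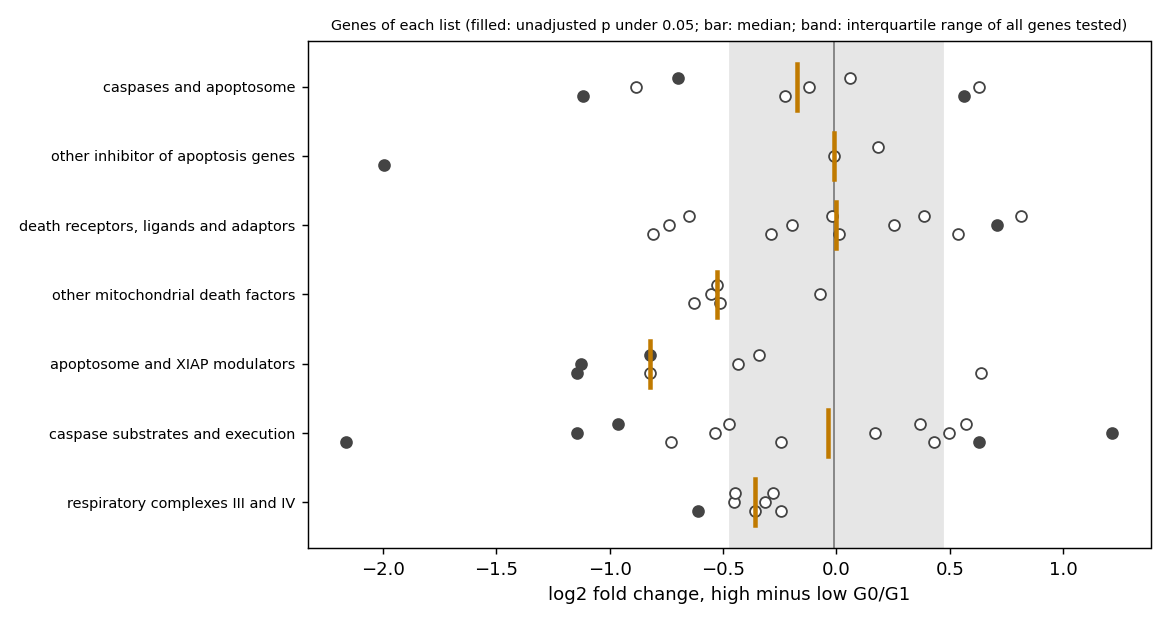
Log2 fold change, high minus low G0/G1 (horizontal axis), for the 8 genes and for the tested genes of each list with more than 1 shown, filled where the unadjusted p was under 0.05, with the median as a bar and the interquartile range of all genes tested (-0.47 to 0.47) as a band. The 8 caspase and apoptosome genes lie on both sides of 0, and all tested members of the lists of mitochondrial death factors and respiratory complexes lie below it.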

How the data were processed

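Whole-number read counts per gene symbol were deposited by the authors in 1 table with 1 column per library. The submitters' processing notes name HISAT2 and the assembly Sscrofa11.1. The counter, annotation and strand setting are not stated in the labels or the file. Coordinates come from RefSeq's table of the same assembly. Columns were matched to samples by title, and replicate numbers follow the listed order and pair nothing.

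High was compared with low G0/G1 over all 4 libraries and 14352 genes in R 4.3.3 by edgeR 4.0.16's quasi-likelihood test (TMM scaling, no covariate, genes kept by filterByExpr at count and total minima of 10 and 15), Benjamini-Hochberg adjusted over all genes tested and called under 0.05. SE was taken as the size of the log2 fold change divided by the square root of F, and log2 CPM uses a prior count of 2. DESeq2 1.42.0 and limma-voom (limma 3.58.1), other scalings, no filter and leaving out each library were alternatives. Scripts were tested on simulated data.

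The members and lists were chosen with earlier results of these data known. Named genes are the members and, from each list, the 4 with the smallest p and any other with an unadjusted p under 0.05, plus the 3 nearest patterns of 3 members. Outside this rule the text also names HTRA2, UQCRB, CASP1, CASP14, CASP8AP2, MAP3K5, some marker genes and genes that overlap a member's locus. Some genes of the caspase list are not reported here. Intervals cover these samples only.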

Additional observations from a re-analysis of the deposited data

How the results depend on the processing

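Of all genes, edgeR called 0 higher and 0 lower with other scalings, 2 and 3 with no filter on low counts, and 0 to 363 and 0 to 591 with 1 library left out, the highest without high replicate 1. DESeq2 called 767 and 725, and with 1 library left out, an alternative added after seeing the data, 202 to 982 and 114 to 1261. The members called were 0 higher and 1 lower with DESeq2, and 0 to 1 higher and 0 to 2 lower with 1 library left out. At an unadjusted p under 0.05 by edgeR, 1 member was higher and 2 were lower under every scaling. Over all genes tested the shares with TMM scaling were 9.92% and 10.8%. Of the tested genes of the 7 pathway lists DESeq2 called 1 higher and 5 lower with all 4 libraries. It called 5.79% and 5.48% of all genes with an adjusted p. Where a library is left out, the lone one of its group is assumed to vary like the others.

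CASP2, CYCS, DIABLO and XIAP kept their sign in all 14 alternatives. With 1 library left out the sign turned for CASP6 (-0.076 to 0.25), CASP8 (-0.46 to 0.13), CASP9 (-0.31 to 0.079), APAF1 (-0.60 to 1.32), CASP10 (-1.13 to 1.93), BIRC3 (-0.22 to 0.52) and TNFRSF1A (-0.014 to 1.37), and the cause was not tested. BIRC6 (-0.25 to 0.28) had no direction: with relative log expression size factors, upper quartile scaling and DESeq2 it had 0.013, 0.00026 and 0.013. No paired analysis was possible because the groups share no replicate numbers in the labels, and the codes in the titles differ for every library and are not explained. With 2 libraries a group, a missed threshold does not show that levels are alike.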
